A study of Mus musculus with 12 samples.

Results

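Mast cells are granule-filled immune cells of the dermis, and 10 genes that mark them were followed in diabetic mouse wounds under 3 kinds of cover. They are 5 granule proteases (Cpa3, Cma1, Mcpt4, Tpsb2 and Tpsab1), both IgE-receptor chains particular to that receptor (Fcer1a and Ms4a2), the peptide receptor Mrgprb2, the growth factor receptor Kit and the histamine-forming enzyme Hdc. The genes were taken by symbol as a named list, which was chosen with earlier results of these data known. Each matched 1 of the 54232 Ensembl identifiers in the deposited count tables, and all 10 were among the 18618 genes with enough reads to be tested.

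The 12 libraries were made from poly(A) RNA of dorsal wounds of male C57BLKS/J mice homozygous for the db allele of Lepr, which encodes the leptin receptor. Such db/db mice become obese and diabetic, and the labelled age was 12.5 weeks. Wounds were 6 mm full-thickness punches taken on day 10. A transparent film dressing alone (Tegaderm, TD) covered 5 wounds, a patch made to impose about 30% strain covered 4 (strain), and a patch without strain covered 3 (no strain). All 3 groups carry the db/db mutation, so no group shows the genes in a non-diabetic wound. Nothing in the labels says that the wounds came from separate mice, and the p-values then measure only the spread between these samples, which may be technical. Titles number TD wounds 1 to 6 and patch wounds 7 to 15, so whatever order these numbers reflect cannot be told apart from the patch itself.

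Total counts ran from 20354677 to 25059371 per library, and 3 counts correspond to at most 0.147 CPM (counts scaled to a common total per library) before scaling factors, a limit that covers counting error only. The tissue carried its defining markers: 10 dermal fibroblast genes summed to 43227 to 75102 CPM and 7 basal keratinocyte genes to 4575 to 11181 CPM over the 12 libraries. Other tissue lists moved with the groups. Of 14 skeletal muscle genes tested, 10 were lower in strain and 3 in no strain than in TD, and of 12 adipocyte genes 8 and 11 were lower. Their summed levels were 7165 to 17910 CPM (muscle) and 2564 to 4947 CPM (adipocyte) in TD, 3393 to 6452 and 1731 to 2622 in strain, and 4955 to 10565 and 1569 to 2062 in no strain. Among 6 markers of basophils, the blood cells most like mast cells, Prss34 had 0 to 5 counts and Mcpt8 5 to 33 counts in any library. The others were higher, with 614 to 861 counts for Il3ra, 173 to 326 for Gata2, 168 to 311 for Itga2b and 23 to 64 for Cd200r3.

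Mast cells mature in the skin under the Kit ligand and store histamine, heparin and proteases in granules. They release them when antigen crosslinks IgE on the high-affinity receptor, or when cationic peptides bind Mrgprb2. The connective tissue type, usual in mouse skin, makes the chymases Cma1 and Mcpt4, the tryptases Tpsb2 and Tpsab1 and the carboxypeptidase Cpa3. Transcription of many of these genes depends on Gata2, a factor that binds GATA sequences.

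The genes lie on 8 chromosomes of GRCm38, and none shares exon bases with another annotated gene. Cma1 (chr14:55941451-55944675) and Mcpt4 (chr14:56059629-56062313), both on the minus strand, belong to the chymase cluster. Tpsb2 (chr17:25366305-25369098, plus strand) and Tpsab1 (chr17:25343245-25345562, minus strand) are neighbouring tryptase genes. Cpa3 (chr3:20215620-20242181), Ms4a2 (chr19:11615523-11623719), Fcer1a (chr1:173221284-173227214), Hdc (chr2:126593667-126619299) and Mrgprb2 (chr7:48550965-48558086) are on the minus strand, and Kit (chr5:75574916-75656722) on the plus strand.

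Upstream sequence is shown for 3 proteases and a receptor chain, which were not called against TD in the main fit below. It is also shown for Mrgprb2 and Hdc, which were called. Each run is the 250 bases before the RefSeq start (GRCm38.p6), written 5′ to 3′ on the gene's strand. Capitals mark GATA with A or T before it and A or G after it, on either strand, so that a match on the other strand appears with its bases reversed and complemented.
Cpa3, chr3:20242182-20242431, minus strand: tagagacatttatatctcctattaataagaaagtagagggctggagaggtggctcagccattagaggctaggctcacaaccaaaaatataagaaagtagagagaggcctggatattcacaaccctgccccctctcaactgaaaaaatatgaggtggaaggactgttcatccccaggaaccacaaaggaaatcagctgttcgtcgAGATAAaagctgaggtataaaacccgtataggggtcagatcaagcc
Cma1, chr14:55944676-55944925, minus strand: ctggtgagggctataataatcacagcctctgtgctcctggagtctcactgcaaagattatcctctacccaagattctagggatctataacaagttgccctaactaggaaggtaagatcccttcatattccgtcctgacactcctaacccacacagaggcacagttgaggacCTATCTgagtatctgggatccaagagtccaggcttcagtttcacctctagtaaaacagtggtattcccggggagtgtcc
Mcpt4, chr14:56062311-56062560, minus strand: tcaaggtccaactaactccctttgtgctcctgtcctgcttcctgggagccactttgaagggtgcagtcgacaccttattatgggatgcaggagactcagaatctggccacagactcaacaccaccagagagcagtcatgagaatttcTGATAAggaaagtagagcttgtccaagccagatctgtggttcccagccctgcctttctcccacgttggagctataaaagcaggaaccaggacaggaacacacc
Ms4a2, chr19:11623720-11623969, minus strand: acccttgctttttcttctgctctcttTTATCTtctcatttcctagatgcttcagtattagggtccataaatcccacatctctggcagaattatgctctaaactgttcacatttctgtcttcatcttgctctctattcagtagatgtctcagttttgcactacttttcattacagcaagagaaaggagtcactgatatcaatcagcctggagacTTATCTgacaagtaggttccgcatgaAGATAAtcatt
Mrgprb2, chr7:48558087-48558336, minus strand: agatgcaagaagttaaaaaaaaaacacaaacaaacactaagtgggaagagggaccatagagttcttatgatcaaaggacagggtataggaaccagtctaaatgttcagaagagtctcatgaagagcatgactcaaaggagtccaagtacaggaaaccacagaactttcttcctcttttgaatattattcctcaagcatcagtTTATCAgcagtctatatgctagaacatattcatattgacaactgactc
Hdc, chr2:126618679-126618928, minus strand: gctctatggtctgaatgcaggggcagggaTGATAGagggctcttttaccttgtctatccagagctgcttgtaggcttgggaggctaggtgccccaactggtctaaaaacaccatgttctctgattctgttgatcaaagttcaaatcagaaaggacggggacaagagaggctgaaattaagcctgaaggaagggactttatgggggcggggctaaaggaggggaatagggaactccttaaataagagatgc

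Matching by symbol found upstream windows for 8 of the 10 genes. Tpsb2 and Tpsab1 had no entry. A GATA match was present in 7 of the 8, all but Kit, against 26.5% of the 32851 windows of that length in the table. The capitals stood 46 bases before the start in Cpa3, 79 in Cma1, 103 in Mcpt4, 48 in Mrgprb2 and 221 in Hdc, and Ms4a2 had 3 matches. The E-box CACGTG or its variant form CATGTG, read on both strands, was found only in Fcer1a among the 8, against 17.6% of all windows. A longer annotated Hdc transcript starts further upstream, so that the Hdc window lies inside an intron of it, and 3 bases of the Mcpt4 window are annotated exon. Gata2 itself had 11.6 ± 1.49 CPM (SD, n = 5) in TD, 11.1 ± 1.73 (SD, n = 4) in strain and 8.99 ± 1.48 (SD, n = 3) in no strain, and did not pass in either comparison with TD (edgeR adjusted p = 0.767 and 0.109).

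Levels of different genes are compared per kilobase of annotated exon. In TD wounds the chymases Cma1 and Mcpt4 were the most abundant members, at 99.1 ± 25.9 and 85.3 ± 19.1 CPM per kilobase (SD, n = 5), and did not differ beyond their spread. Tpsb2 (45.9 ± 11.4) and Cpa3 (39.5 ± 9.31) followed and likewise overlapped. Tpsab1 (7.75 ± 2.53) and Fcer1a (6.84 ± 2.67) came next; the annotated exons of Tpsab1 include a retained intron, which lowers its value per kilobase. Hdc (3.21 ± 0.836), Mrgprb2 (2.75 ± 0.664) and Kit (2.33 ± 0.345) lay within each other's spread, and Ms4a2 (1.40 ± 0.230) was lowest. The 4 leading genes kept that order in the strain and no-strain groups, while Hdc moved up to 7.99 ± 2.43 (SD, n = 4) and 13.4 ± 4.81 CPM per kilobase (SD, n = 3). In strain it lay within the spread of Tpsab1 (6.94 ± 2.64) and Fcer1a (6.70 ± 2.75), and in no strain its mean was above theirs.

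Against TD, Hdc rose and Mrgprb2 fell under each kind of patch, and the other 8 genes did not pass. The call was an adjusted p under 0.05 in an edgeR quasi-likelihood fit over all genes tested. For strain the 2 of 10 genes called stand beside 12.6% of all genes (6.20% higher and 6.41% lower), and for no strain beside 17.8% (9.35% higher and 8.40% lower). For both patch groups averaged, the same 2 were called, beside 24.4% of all genes (12.4% higher and 12.1% lower). In each comparison with TD, 8 of 10 log2 fold changes were below 0, with a median of -0.21 for strain and -0.47 for no strain. Of all genes tested, 47.2% and 49.3% were below 0, with medians of 0.02 and 0.00. Both comparisons use the same TD libraries, so their values are given side by side and not as separate support. Between strain and no strain 0 of 10 genes were called, and edgeR called 0.00% of all genes. At an unadjusted p under 0.05 that comparison held 1 of the 10 (Hdc) and 5.61% of all genes. DESeq2 called 33 genes there, and limma-voom 0, with no member in either.

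**Figure D1:**
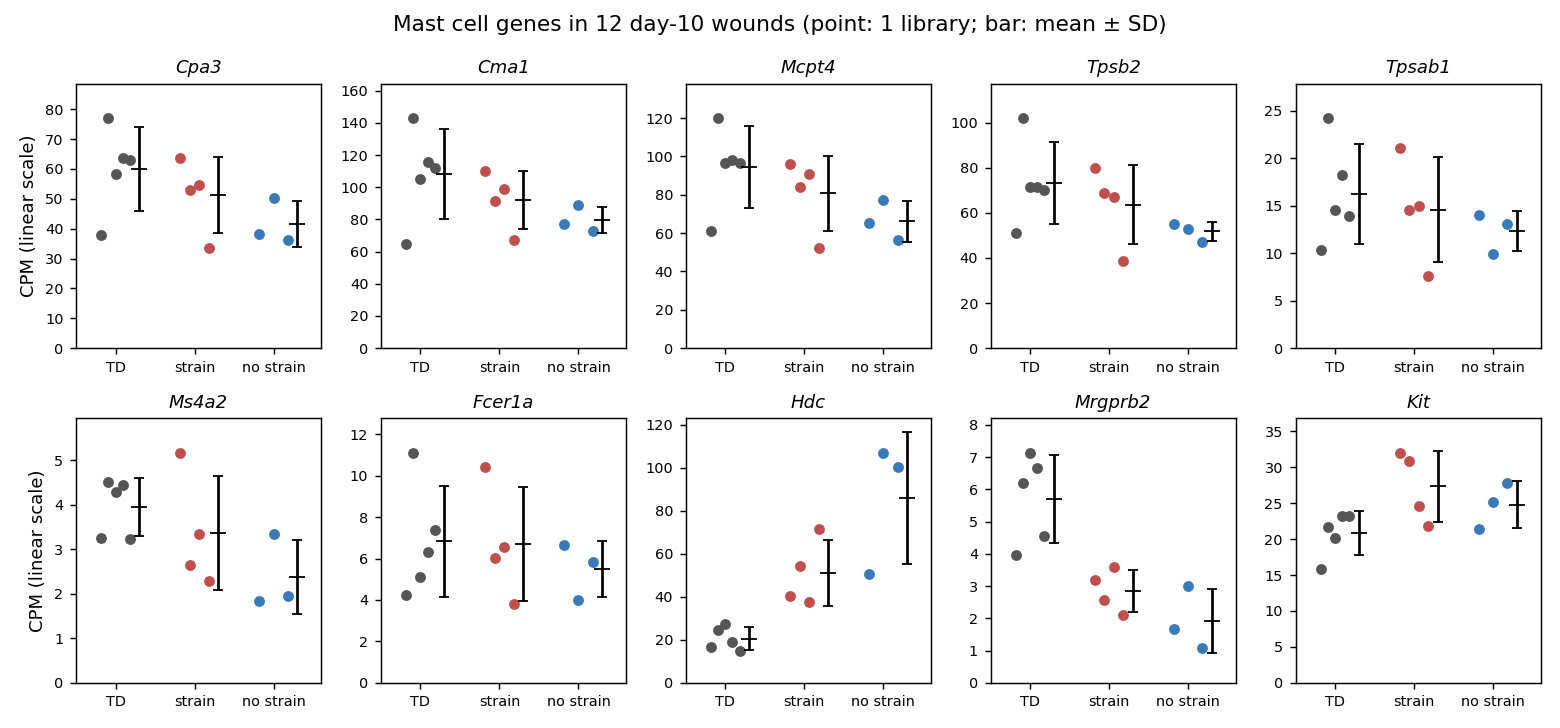
Level of each of the 10 genes in the 12 wounds, in CPM on a linear axis that starts at 0; each point is 1 library and the bar gives the mean ± SD of the group (TD n = 5, strain n = 4, no strain n = 3). Every TD library lies below the patch libraries for Hdc and above them for Mrgprb2, while the groups overlap for the other 8 genes.

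Cpa3, the carboxypeptidase that trims peptides and venoms in the granule, had 38.0, 77.0, 58.3, 63.6 and 63.0 CPM in TD libraries 1 to 5. Strain libraries 1 to 4 had 63.8, 52.8, 54.5 and 33.6 CPM, and no-strain libraries 1 to 3 had 38.2, 50.3 and 36.3 CPM. TD library 1 and strain library 4 were the low ones, and all 3 groups overlapped. The means were 60.0 ± 14.1 (SD, n = 5), 51.2 ± 12.7 (SD, n = 4) and 41.6 ± 7.60 CPM (SD, n = 3). The log2 fold change was -0.23 (SE 0.212, edgeR adjusted p = 0.508) in strain and -0.53 (SE 0.234, edgeR adjusted p = 0.141) in no strain, both against TD.

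The other proteases gave nearly the same picture. Cma1, a chymase that cleaves matrix and peptide substrates, had means of 108 ± 28.3, 92.0 ± 18.2 and 79.7 ± 8.33 CPM in TD, strain and no strain. Mcpt4, the chymase closest in activity to human chymase, had 94.6 ± 21.2, 80.8 ± 19.7 and 66.3 ± 10.7 CPM. Tpsb2 and Tpsab1 encode the tetrameric tryptases. Tpsb2 had 73.2 ± 18.2, 63.6 ± 17.6 and 51.7 ± 4.16 CPM, and Tpsab1 had 16.2 ± 5.29, 14.5 ± 5.54 and 12.3 ± 2.11 CPM. Over the 5 proteases the log2 fold changes ran from -0.23 to -0.16 in strain and from -0.53 to -0.40 in no strain, and 0 of 5 passed in either. At an unadjusted p under 0.05, 0 and 2 of the 5 qualified, beside 29.5% and 33.5% of all genes, and DESeq2 and limma-voom called none of them. The difference between strain and no strain ran from 0.21 to 0.30, with unadjusted 95% intervals that spanned -0.49 to 0.96 at the widest, in Tpsab1.

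TD library 1 decided part of this. Without it, Cma1 was called lower in no strain than in TD (log2 fold change -0.58, edgeR adjusted p = 0.0414), and Cma1 (-0.47, adjusted p = 0.0306) and Mcpt4 (-0.49, adjusted p = 0.0496) were called lower in both patches together. Each gene was called in only 1 alternative, of 24 for no strain and 23 for both patches. Over the single libraries left out, Cma1 spanned -0.58 to -0.32 for no strain. In bulk tissue, fewer mast cells and less protease RNA per mast cell cannot be told apart. Counting could also mix close copies: 5.38% of the 50-base stretches of Cma1 transcripts and 5.48% of those of Mcpt4 occur in another gene's transcripts, and none of those of Cpa3, Tpsb2 or Tpsab1 do.

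Within the TD and strain groups the 5 proteases deviated together in the libraries furthest from the group mean. In TD library 1 all 5 lay below the group mean, by 0.48 to 0.69 on the log2 scale, and in TD library 2 all 5 lay above it, by 0.38 to 0.64. Strain library 4 had all 5 below its group mean (deviations of -0.84 to -0.43) and strain library 1 all 5 above (0.28 to 0.63). Strain libraries 2 and 3 had all 5 above by less (0.02 to 0.16 and 0.12 to 0.20). Signs were mixed in TD libraries 3, 4 and 5 and in no-strain libraries 1, 2 and 3. In no-strain library 2 Cpa3 deviated by 0.29 and Tpsab1 by -0.29. The within-group SD was 0.34 to 0.36 log2 units for Cpa3, Cma1, Mcpt4 and Tpsb2 and 0.48 for Tpsab1, beside a median of 0.23 over all genes tested. The summed CPM of the 5 ran from 225 to 467 in TD, 199 to 371 in strain and 226 to 279.8 in no strain.

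**Figure D2:**
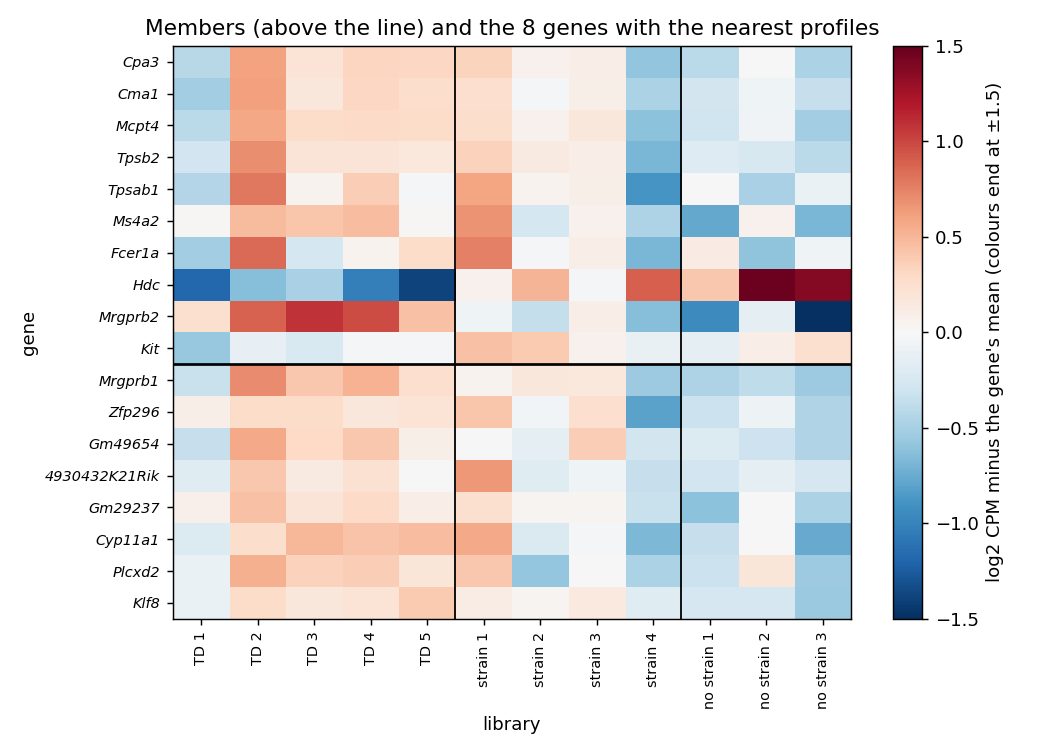
Deviation of log2 CPM from each gene's mean over the 12 libraries (columns, grouped as TD, strain and no strain), for the 10 genes above the line and the 8 genes nearest to their common profile below it. Rows from Cpa3 to Fcer1a share the high TD library 2 and the low strain library 4, whereas Hdc is low in all 5 TD libraries and Mrgprb2 is above its mean in all 5.

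The common profile was taken as the mean centred log2 CPM of the 8 members other than Kit and Hdc, which other skin cells also express. It deviated from its own mean by a root mean square (RMS) of 0.388 log2 units over the 12 libraries. Among members, Mcpt4 (RMS difference 0.0867), Cpa3 (0.0885), Tpsb2 (0.101) and Cma1 (0.120) lay closest to it, in part because they enter the mean. Tpsab1 (0.228), Ms4a2 (0.230) and Fcer1a (0.315) followed, then Kit (0.442), Mrgprb2 (0.515) and Hdc (1.20). The median over all other genes was 0.461. Of genes outside the list, Mrgprb1 was nearest (0.149), a receptor gene of the same family as Mrgprb2, at 7.20 to 17.3 CPM. Zfp296, Gm49654, 4930432K21Rik, Gm29237, Cyp11a1, Plcxd2 and Klf8 followed, at 0.187 to 0.220. After subtraction of group means 3 of these 8 remained among the 8 nearest, namely Mrgprb1, Zfp296 and 4930432K21Rik, and the protease gene Mcpt2 took the second place (0.139).

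Both IgE receptor genes overlapped between all 3 groups, and neither passed. Fcer1a encodes the chain that binds IgE and Ms4a2 the chain that amplifies the signal. Fcer1a had 4.24, 11.1, 5.10, 6.34 and 7.37 CPM in TD libraries 1 to 5, 10.4, 6.03, 6.54 and 3.79 in strain libraries 1 to 4, and 6.66, 3.99 and 5.85 in no-strain libraries 1 to 3. It was highest in TD library 2 and strain library 1, the libraries in which the proteases were also high, and its log2 fold changes against TD were -0.03 (SE 0.321) and -0.31 (SE 0.354). Ms4a2 had 3.24 to 4.52 CPM in TD (median 4.30), 2.30 to 5.17 in strain (median 3.00) and 1.85 to 3.35 in no strain (median 1.95). Its log2 fold change was -0.23 (SE 0.256, edgeR adjusted p = 0.584) for strain and -0.73 (SE 0.288, edgeR adjusted p = 0.101) for no strain. Ms4a2 was called lower without no-strain library 2 (-1.06 for no strain against TD, adjusted p = 0.0449) and without strain library 1 (-0.62 for both patches against TD, adjusted p = 0.0394). These are low counts, 41 to 110 per library for Ms4a2 and 79 to 270 for Fcer1a.

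Mrgprb2 fell in both patch groups. It encodes the receptor through which substance P, host-defence peptides and many cationic drugs degranulate mouse connective tissue mast cells without IgE. TD libraries 1 to 5 had 3.95, 6.20, 7.13, 6.66 and 4.56 CPM, strain libraries 1 to 4 had 3.18, 2.57, 3.58 and 2.11, and no-strain libraries 1 to 3 had 1.67, 3.00 and 1.07. No patch library reached the lowest TD library, and strain and no strain overlapped. Libraries that do not overlap with TD and lie below it were found for 7.15% of all genes in strain and 12.5% in no strain. The means were 5.70 ± 1.38 (SD, n = 5), 2.86 ± 0.652 (SD, n = 4) and 1.91 ± 0.991 CPM (SD, n = 3).

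For strain against TD the log2 fold change of Mrgprb2 was -0.99 (SE 0.285, edgeR adjusted p = 0.0420), a 1.99-fold lower level. For no strain against TD it was -1.57 (SE 0.327, edgeR adjusted p = 0.00988), 2.97-fold lower. The difference of 0.58 between strain and no strain (SE 0.336, 95% interval -0.16 to 1.31) did not pass (edgeR adjusted p = 0.881). The strain result lay close to the threshold: the call ended without TD library 2, 3 or 4, strain library 1, 2 or 4 or no-strain library 1, at log2 fold changes of -0.87 to -1.04 and adjusted p of 0.0525 to 0.114. The no-strain call held at each library left out, with log2 fold changes of -2.06 to -1.29. The adipocyte list was lower in the same groups. With its mean as a covariate the log2 fold changes of Mrgprb2 were -0.38 and -0.53 (edgeR adjusted p = 0.642 and 0.729), in a fit that called 80 and 98 genes in all against 2349 and 3305 without the covariate. Smaller values there were not particular to genes that fell. Fcer1g, a rising gene described below, went from 0.85 and 1.10 to 0.46 and 0.41. Not all genes shrank: Hdc had 1.3 and 2.04 in that fit, although it was not called. Ltc4s and Alox5, falling genes described below, kept their calls. The counts behind Mrgprb2 were 96 to 179 per TD library, 44 to 92 per strain library and 23 to 70 per no-strain library.

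**Figure D3:**
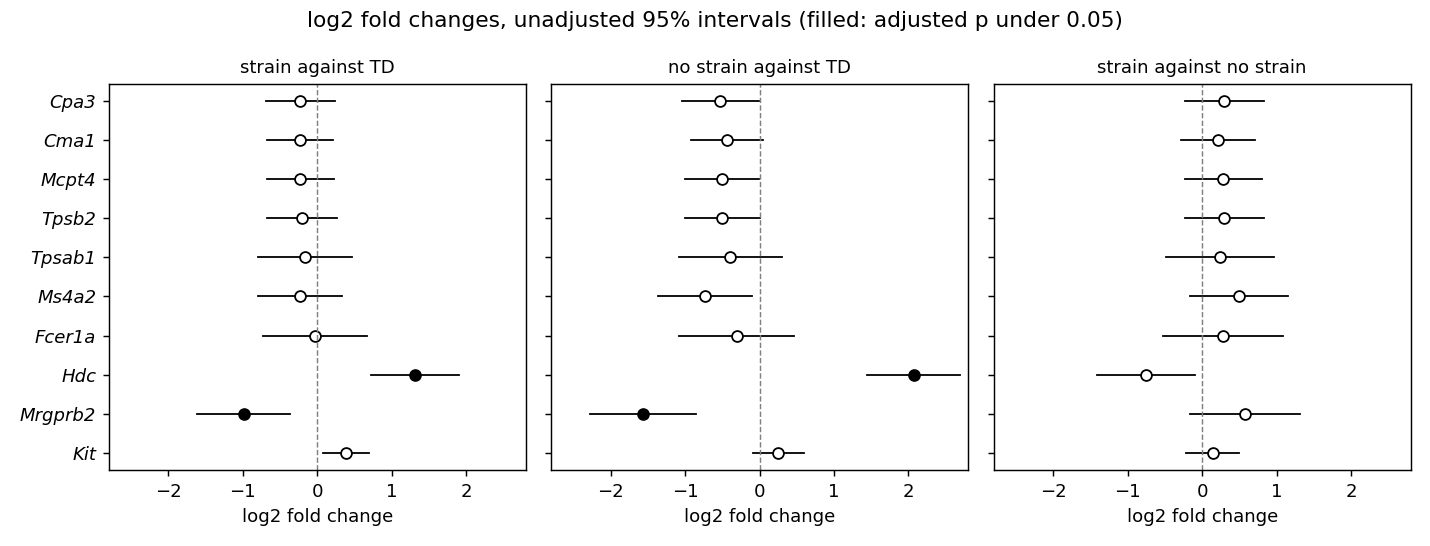
Log2 fold changes of the 10 genes in 3 comparisons, with unadjusted 95% intervals; filled points passed an adjusted p of 0.05 in the edgeR fit and open points did not. Hdc (1.32 and 2.07) and Mrgprb2 (-0.99 and -1.57) are filled in the comparisons with TD, and no point is filled for strain against no strain.

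Kit, the receptor for stem cell factor on which mast cell survival depends, had fold changes of the opposite sign to those of the proteases and did not pass. TD libraries 1 to 5 had 15.8, 21.7, 20.1, 23.2 and 23.2 CPM, strain libraries 1 to 4 had 32.0, 30.9, 24.6 and 21.8, and no-strain libraries 1 to 3 had 21.4, 25.2 and 27.8. The groups overlapped, although all 7 patch libraries lay above the TD mean of 20.8 ± 3.07 CPM (SD, n = 5). The log2 fold change was 0.39 (SE 0.143, edgeR adjusted p = 0.0910) for strain, 0.25 (SE 0.155, edgeR adjusted p = 0.281) for no strain and 0.32 (SE 0.126, edgeR adjusted p = 0.0828) for both. It was called for both patches without strain library 4 (0.37, adjusted p = 0.0444). Kitl, its ligand, had log2 fold changes of 0.09 and -0.02 against TD (edgeR adjusted p = 0.503 and 0.886).

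Melanocytes also carry Kit. Of 8 melanocyte genes, 6 were higher in strain than in TD and 0 lower, beside 6.20% and 6.41% of all genes. In no strain 0 were higher and 1, Sox10, was lower, beside 9.35% and 8.40%. Sox10 (-0.55 and -0.86 on the log2 scale) and Ednrb (-0.87 and -0.84), which other skin cells also express, had negative fold changes in both comparisons (edgeR adjusted p = 0.138 and 0.0397 for Sox10, 0.140 and 0.173 for Ednrb). All 8 genes, of which Ednrb is the most abundant, summed to 89.0 to 212 CPM in TD, 73.7 to 149 in strain and 81.1 to 108 in no strain, and overlapped. The 5 pigment cell genes Dct, Pmel, Tyr, Tyrp1 and Mlana, a subset of the list, summed to 7.55 to 13.5 CPM in TD, 58.7, 75.8, 27.4 and 21.2 CPM in strain libraries 1 to 4, and 12.3, 35.8 and 8.69 CPM in no-strain libraries 1 to 3. These 5 are the first of the list, which was chosen with earlier results of these data known, and leave out Sox10, Ednrb and Slc45a2. Strain libraries 1 and 2 had the highest pigment sums and the highest Kit. The highest sums of all 8 were in TD libraries 2 and 5 (212 and 197 CPM), where Kit had 21.7 and 23.2 CPM. No-strain library 3 had 27.8 CPM of Kit with a pigment sum inside the TD range. The part of melanocytes in the level of Kit was not tested.

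Hdc rose in both patch groups and was the member that changed most. It encodes histidine decarboxylase, which makes histamine in a single step from histidine; in mice, neutrophils and other myeloid cells express it as well as mast cells. TD libraries 1 to 5 had 16.9, 24.6, 27.4, 18.9 and 14.6 CPM, strain libraries 1 to 4 had 40.4, 54.6, 37.8 and 71.6, and no-strain libraries 1 to 3 had 50.6, 107 and 100.3. No patch library came down to the highest TD library, and the strain and no-strain groups overlapped. Libraries above TD without overlap were found for 7.47% of all genes in strain and 14.3% in no strain. The means were 20.5 ± 5.34 (SD, n = 5), 51.1 ± 15.5 (SD, n = 4) and 85.9 ± 30.7 CPM (SD, n = 3).

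The log2 fold change of Hdc was 1.32 (SE 0.268, edgeR adjusted p = 0.0137) for strain against TD, a 2.49-fold higher level, and 2.07 (SE 0.284, edgeR adjusted p = 0.00249) for no strain against TD, 4.19-fold higher. Strain was below no strain by 0.75 on the log2 scale in the fit (-0.75, SE 0.299, 95% interval -1.41 to -0.10), with an unadjusted p of 0.0282 that did not pass (edgeR adjusted p = 0.872). Both calls against TD held at each library left out, with log2 fold changes of 1.11 to 1.44 for strain and 1.88 to 2.34 for no strain. The titles also carry a letter, L or R, of unstated meaning. Among the libraries with R, the 4 TD libraries had 14.6 to 27.4 CPM of Hdc against 37.8 in strain library 3 and 50.6 in no-strain library 1. Among those with L, TD library 1 had 16.9 CPM against 40.4 to 71.6 in strain and 107 and 100.3 in no strain. The same split for Mrgprb2 gave 4.56 to 7.13 CPM against 3.58 and 1.67 (R), and 3.95 against 2.11 to 3.18 and 3.00 and 1.07 (L). With the letter as a covariate neither gene was called for strain against TD (1.06, adjusted p = 0.0751 for Hdc; -0.81, adjusted p = 0.161 for Mrgprb2), and both were for no strain.

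Neutrophil genes were higher in the same groups as Hdc. Of 12 such genes, 9 rose in strain and 7 in no strain against TD, beside 6.20% and 9.35% of all genes. They summed to 1599, 601, 413, 470.4 and 549 CPM in TD libraries 1 to 5, 8578, 5777, 827 and 1402 CPM in strain libraries 1 to 4, and 5134, 1958 and 4134 CPM in no-strain libraries 1 to 3. S100a8 and S100a9, which other cells of a wound also express, made up 75.0% to 97.9% of this sum, so the list was also divided, after its values were seen, into these and the other 10 genes. The sum of S100a8 and S100a9 was highest in strain library 1, at 8396 CPM, where Hdc had 40.4 CPM, and was 1572 CPM in no-strain library 2, where Hdc was highest. The other 10 genes summed to 82.4, 116, 92.6, 96.7 and 101 CPM in TD libraries 1 to 5, 183, 317, 207 and 300 CPM in strain libraries 1 to 4, and 241, 385 and 568 CPM in no-strain libraries 1 to 3. This sum was lowest in the 5 TD libraries and highest in no-strain libraries 2 and 3, the libraries with the highest Hdc. Within TD it did not follow Hdc: it was 92.6 CPM in library 3, where Hdc was 27.4 CPM, and 101 CPM in library 5, where Hdc was 14.6 CPM. Since the split was made with the values known, it is a description and no test of where Hdc comes from. Csf3r, the receptor for the neutrophil growth factor, had 32.0, 44.2, 26.7, 34.9 and 40.9 CPM in TD libraries 1 to 5, 64.0, 118, 69.3 and 87.3 in strain libraries 1 to 4, and 69.6, 115 and 223 in no-strain libraries 1 to 3. For strain against no strain, 7 of the 12 neutrophil genes had log2 fold changes below 0, the sign of Hdc. The other 5 were above 0, and 0 of the 12 passed. Whether Hdc in these libraries comes from mast cells or neutrophils cannot be told apart in bulk tissue. With the neutrophil mean as a covariate the log2 fold changes of Hdc were 1.17 and 1.86 (edgeR adjusted p = 0.683 and 0.719), but that fit called 0 of 18618 genes against TD. Of 10 macrophage genes, 0 were called in either comparison in the edgeR fit, with 1 and 6 at an unadjusted p under 0.05.

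**Figure D4:**
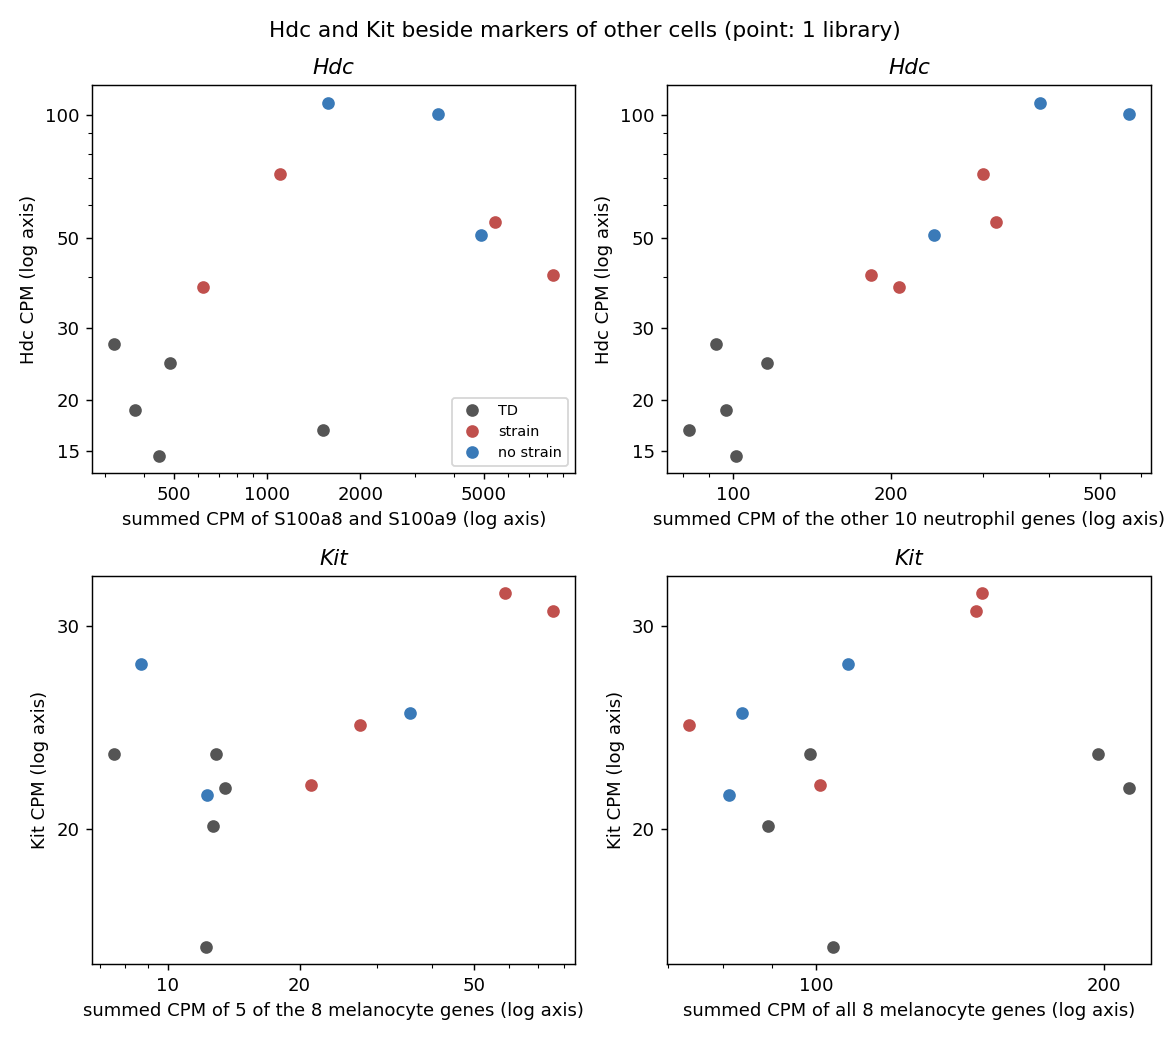
CPM of Hdc (top) against the summed CPM of S100a8 and S100a9 (left) and of the other 10 neutrophil genes (right), and CPM of Kit (bottom) against 5 of the 8 melanocyte genes (left) and all 8 (right), on log axes, with 1 point per library. The other 10 neutrophil genes, split off after the values were seen, are at 82.4 to 116 CPM in TD and 183 to 568 CPM in the patch groups. Hdc is also higher in the patch groups. The highest sums of the 5 melanocyte genes, 58.7 and 75.8 CPM, go with the highest Kit, whereas the sum of all 8 is highest in TD.

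Within a library, counts can be set against those of Cpa3, which removes shifts shared by all mast cell genes. These ratios were chosen after the values were seen and are given as a description. Per 100 Cpa3 counts, Cma1 had 171 to 186 counts in TD, 173 to 200 in strain and 177 to 202 in no strain, and Mcpt4 had 154 to 166, 151 to 166 and 154 to 171. The proportions of these proteases thus overlapped in all groups while their level varied 2.21-fold (Cma1) and 2.30-fold (Mcpt4) between the lowest and highest library. Mrgprb2 had 7.24 to 12.2 counts per 100 Cpa3 counts in TD, 4.86 to 6.57 in strain and 2.94 to 5.97 in no strain, and did not overlap with TD. Kit had 28.2 to 41.6 in TD and 45.0 to 76.5 over both patch groups, and the chymase-like protease Mcpt2 had 177 to 238 and 260.1 to 342. Hdc had 23.3 to 47.0 in TD and 63.3 to 276 over both patch groups. Kit, Mcpt2 and Hdc thus lay above TD without overlap, as did 1.93% of all genes in this ratio, and 0.500% lay below TD as Mrgprb2 did. Cpa3 itself had log2 fold changes of -0.23 and -0.53, so the ratio of a gene whose CPM stayed level would also be higher in the patch groups. Mrgprb1, a receptor of the same family, overlapped between all 3 groups, at 19.9 to 23.9 in TD and 16.0 to 22.5 over both patch groups.

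**Figure D5:**
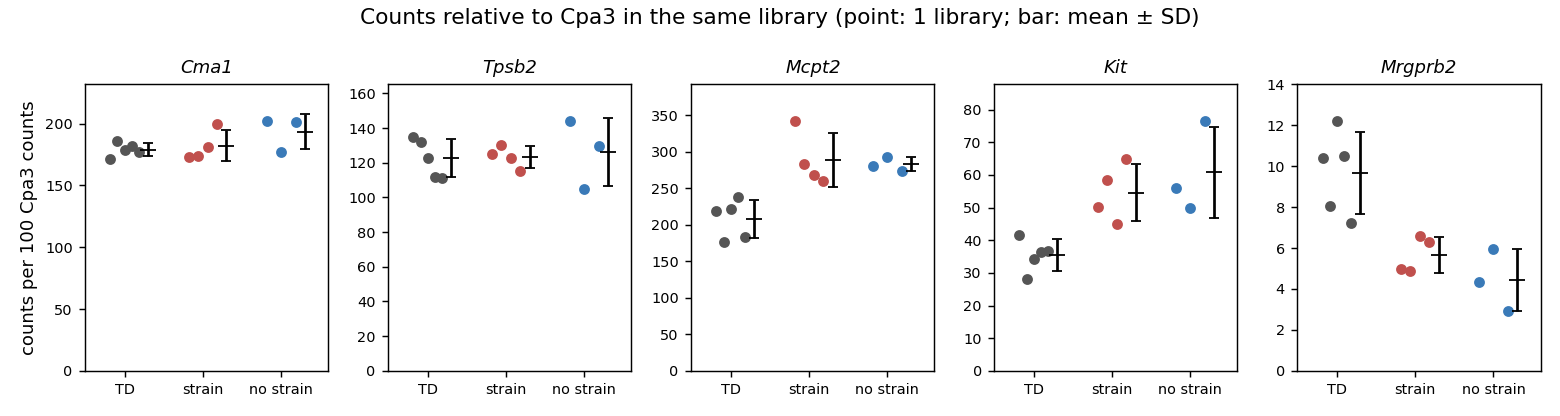
Counts per 100 Cpa3 counts of the same library for 5 genes, on linear axes that start at 0; points are libraries and bars the mean ± SD of the group. Cma1 and Tpsb2 overlap in all 3 groups, Mcpt2 and Kit lie above TD in both patch groups, and Mrgprb2 lies below it.

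Other mast cell genes were examined through 4 lists. Of 22 genes of granules, identity and lipid mediators, 21 were tested, and Mcpt1, at 0 to 30 counts per library, was not. In strain 2 were higher than in TD (Srgn and Il1rl1) and 2 lower (Ltc4s and Alox5). In no strain 2 were higher (Srgn and Cd63) and 4 lower (Slc18a2, Mrgprb1, Ltc4s and Alox5). The 4 and 6 of 21 called stand beside 12.6% and 17.8% of all genes. Without TD library 3 or 4 or strain library 2 or 4 the count for strain was 2, and without no-strain library 3 that for no strain was 3. The list's median log2 fold change was -0.12 and -0.33, beside 0.02 and 0.00 over all genes. Ltc4s, the synthase of leukotriene C4, fell from 6.66 to 12.0 CPM in TD to 2.43 to 4.74 in strain and 1.84 to 4.09 in no strain, by 1.37 and 1.43 on the log2 scale (edgeR adjusted p = 0.0138 and 0.0121). Alox5, which starts leukotriene synthesis, fell by 0.98 and 0.99 (edgeR adjusted p = 0.0192 and 0.0202). Srgn encodes the proteoglycan core that holds proteases in granules and is made by most blood-derived cells. It rose by 0.99 and 1.47 (edgeR adjusted p = 0.0252 and 0.00522). Slc18a2, the transporter that loads histamine into granules, had -0.28 in strain, not passing, and fell by 0.57 in no strain (edgeR adjusted p = 0.0259). Mcpt2 had 0.29 and -0.06 (edgeR adjusted p = 0.457 and 0.903). The call for Alox5 in no strain ended without no-strain library 1 or 2 (adjusted p = 0.0795 and 0.0577). That for Srgn in strain ended without TD library 3 or 4 or strain library 2 or 4 (0.0546 to 0.0868). That for Slc18a2 ended without TD library 2 or 4 or no-strain library 1 or 3 (0.0527 to 0.104).

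Of 19 signalling genes downstream of the IgE receptor and Kit, 13 did not pass in strain and 14 did not in no strain. All 19 were tested: 5 were higher in strain (Fcer1g, Lyn, Lat, Lcp2 and Vav1) and 4 in no strain (Fcer1g, Lyn, Lcp2 and Vav1), and Stim1 was lower in both. The shares of all genes called higher were 6.20% and 9.35%. The count called in strain, 6 in either direction, was 2 without TD library 3 or 4 and 1, Stim1, without strain library 2. The median was 0.36 and 0.46, beside 0.02 and 0.00 over all genes. Fcer1g, the signalling chain that the IgE receptor shares with other Fc receptors of myeloid cells, rose by 0.85 and 1.10 on the log2 scale (edgeR adjusted p = 0.0163 and 0.00564). Vav1, an exchange factor of blood-derived cells, rose by 0.81 and 1.12 (edgeR adjusted p = 0.0247 and 0.00664). Lyn, the kinase that phosphorylates the receptor chains, rose by 0.69 and 0.92 (edgeR adjusted p = 0.0310 and 0.0103). Stim1, the calcium sensor of store-operated entry, fell by 0.60 and 0.51 (edgeR adjusted p = 0.00510 and 0.00629). The skeletal muscle and adipocyte lists were lower in the same groups. With the muscle mean as a covariate the log2 fold changes of Stim1 were -0.27 and -0.34 (edgeR adjusted p = 0.552 and 0.0683), and with the adipocyte mean -0.35 and -0.09 (edgeR adjusted p = 0.152 and 0.832). The muscle fit called 1 and 806 genes in all, and the adipocyte fit 80 and 98. Without a covariate the counts were 2349 and 3305, so the lost calls are not particular to Stim1. In strain, the call for Fcer1g ended without strain library 2 (adjusted p = 0.0596). That for Vav1 ended without TD library 3 or 4 or strain library 2 (0.0541 to 0.0865), and that for Lyn without TD library 1, 2, 3 or 4 or strain library 2, 3 or 4 (0.0519 to 0.109). The neutrophil list was higher in the same groups, and its part in these changes was not tested beyond the covariate fit that called 0 genes.

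Of 8 genes that handle or sense histamine, 5 were tested and Aoc1, Hrh3 and Hrh4 were not. In strain 1 was called higher and 2 lower than in TD, beside 6.20% and 6.41% of all genes. In no strain 1 was higher and 1 lower, beside 9.35% and 8.40%. Hrh2, a histamine receptor that raises cyclic AMP and is found on many leukocytes, rose by 1.29 and 1.43 on the log2 scale in strain and no strain (edgeR adjusted p = 0.00757 and 0.00388). Its TD libraries had 1.93 to 3.16 CPM, against 4.62 to 9.90 in strain and 6.57 to 7.39 in no strain, without overlap. The same held for 7.47% of all genes in strain and 14.3% in no strain. Slc22a3, a low-affinity transporter that clears histamine, fell by 1.25 and 2.05 (edgeR adjusted p = 0.0157 and 0.00326). Hnmt, which inactivates histamine by methylation, fell by 0.57 in strain (edgeR adjusted p = 0.0332) and had -0.49 in no strain (edgeR adjusted p = 0.0620). Its strain call ended without TD library 2, 3 or 5 or strain library 1, 2 or 4 (adjusted p of 0.0619 to 0.0763). In no strain Hnmt was called with library totals (adjusted p = 0.0405), DESeq2 (0.0265), weighted limma-voom (0.0454) and without no-strain library 3 (0.0367). Maob, which oxidises the methylated product, had -0.41 and -0.42 and did not pass (edgeR adjusted p = 0.0601 and 0.0595), but was called by DESeq2 in both (adjusted p = 0.0223 and 0.0280) and by edgeR for both patch groups together (-0.41, adjusted p = 0.0209). For no strain it was also called with library totals (0.0458), with only the groups compared (0.0463) and without strain library 2 or 4 (0.0451 and 0.0389). Hrh1 had -0.43 and -0.86 and did not pass (edgeR adjusted p = 0.336 and 0.0842). The list's median was -0.43 and -0.49, beside 0.02 and 0.00 over all genes. With the adipocyte mean as a covariate Slc22a3 had -0.37 and -0.53 (edgeR adjusted p = 0.542 and 0.639), in a fit that called 80 and 98 genes in all.

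Of 16 growth, survival and recruitment factors, 14 were tested; Il3 was at 0 in all libraries and Il9 under 10 counts. In strain 3 were higher than in TD (Cxcl12, Bcl2a1a and Bcl2a1b), in no strain these and Mcl1, and 0 were lower in either. These 3 and 4 of 14 stand beside 6.20% and 9.35% of all genes called higher, and 2 of the calls in each are near-identical copies. Without TD library 4 or no-strain library 3 the count for no strain was 2. Cxcl12, a chemokine for many leukocytes and their progenitors, rose by 0.83 and 0.87 (edgeR adjusted p = 0.0320 and 0.0278). Bcl2a1a and Bcl2a1b are near-identical copies of an anti-apoptotic gene used by activated mast cells and neutrophils, so that reads could be split between them. They rose by 1.40 and 1.12 in strain and 1.40 and 1.21 in no strain (edgeR adjusted p of 0.00392 to 0.00917). Mcl1, a survival factor of many cells, had 0.33 in strain (edgeR adjusted p = 0.0807) and rose by 0.46 in no strain (edgeR adjusted p = 0.0279). The list's median was 0.24 and 0.37, beside 0.02 and 0.00 over all genes. The calls for Cxcl12 ended without TD library 2, 3, 4 or 5 or strain library 1 or 2 in strain (adjusted p of 0.0524 to 0.110), and without TD library 2, 3 or 4 or no-strain library 3 in no strain (0.0556 to 0.133, with 0.43 on the log2 scale without no-strain library 3). That for Mcl1 ended without TD library 1 or 4 or no-strain library 2 or 3 (0.0542 to 0.124). Between strain and no strain, 0 genes of the 4 lists were called by edgeR, DESeq2 or limma-voom, and 1 of them, Slc22a3, had an unadjusted p under 0.05 (0.0286).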

How the data were processed

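Raw counts per gene were deposited by the authors, 1 file per library, per the file headers. Per the submitters' processing notes, bcl2fastq 2.17, FastQC, cutadapt, STAR, featureCounts and DESeq2 were used with build GRCm38; their roles, the annotation release, the strand setting and the handling of multi-mapping reads are not given in the sources used here. The kit in the labels does not mark strand. Symbols came from GENCODE M21 (54079 of 54232 identifiers matched).

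Genes were kept by filterByExpr of edgeR 4.0.16 (minimum count 10, total 15) in R 4.3.3. All 12 libraries entered 1 TMM-scaled quasi-likelihood fit with robust weights, tested on simulated data, with Benjamini-Hochberg adjustment over all genes. Log2 CPM adds a prior count of 2. The members, gene lists, tests and naming rule were chosen with earlier results of these data known. All 10 members, up to 4 genes per mast cell list with the smallest p over the 3 groups, and the 8 genes nearest in profile were named; other genes named in the text were chosen after their values were seen. Alternatives were scaling by DESeq2 size factors or library totals, DESeq2 1.42.0, limma-voom (limma 3.58.1), other filters, covariates and leaving out each library.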

Additional observations from a re-analysis of the deposited data

Results flagged for a closer look

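Among 52 values screened, each a gene in the TD or the strain group, a library stood apart from the rest of its group in 2, and chance gives about 2.6. Stim1 in strain library 3 had a log2 CPM of 6.45, with the next library at 6.23, a gap of 0.858 of the group's range. Cxcl12 in strain library 2 had a log2 CPM of 9.17, with the next at 8.75, a gap of 0.890 of the range. Both genes kept their sign in strain against TD without that library.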

How the results depend on the processing

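No paired analysis was possible because the groups share no replicate numbers in the titles. Of 24 alternatives, 1 (the neutrophil covariate) was chosen after the data were seen. The count of members called, 2 in each comparison with TD, was 1 (Hdc) with a mean of at least 5 CPM, where Mrgprb2 was not tested. For strain it was 0 with the title letter, the muscle, the adipocyte or the neutrophil covariate. For no strain it was 1 with the muscle and 0 with the adipocyte or neutrophil covariate, and for both patches 0 with each of these 3. These fits also called fewer of all genes. With the letter, muscle, adipocyte and neutrophil covariates in that order, strain had 798, 1, 80 and 0 against 2349. No strain had 2145, 806, 98 and 0 against 3305. Leaving out 1 library gave 1 to 2 (strain), 2 to 3 (no strain) and 2 to 4 (both patches). Strain against no strain stayed at 0 in all. Mrgprb2 passed in 12 of 23 alternatives for strain and 20 of 23 for no strain, and Hdc in 20 of 24 and 22 of 24.

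Signs that changed, in genes not called except Cxcl12, were these log2 fold changes; the cause was not tested. Without TD library 2: Tpsab1 0.02 and Fcer1a 0.21 (strain against TD) and Fcer1a 0.07 (both patches). Over the single libraries left out, Tpsab1 spanned -0.39 to 0.05 and Fcer1a -0.32 to 0.21 for strain against TD, and Fcer1a spanned -0.32 to 0.07 (both patches) and -0.01 to 0.47 (strain against no strain). Without strain library 4, Tpsab1 had 0.05 and Fcer1a 0.16 (strain against TD), without strain library 2 Fcer1a had 0.00 there, and without strain library 1 it had -0.01 (strain against no strain). With the letter, Tpsab1 had 0.07 and Fcer1a 0.22 (strain) and Fcer1a 0.06 (both). With the adipocyte covariate, Ms4a2 had 0.19, 0.02 and 0.11 (strain, no strain, both), and Kit -0.04 and Maob 0.09 (no strain). With the neutrophil covariate, Kit had -0.12 (no strain) and -0.01 (both), and Cxcl12 -0.25 and -0.61 (strain, no strain).

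With library totals alone, 1257 of 3303 calls for no strain against TD were higher, against 1741 of 3305. Mrgprb2 rests on 23 to 179 counts per library.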

Other observations

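Further genes of the granule list and of the growth, survival and recruitment list, chosen after their values were seen, passed when both patch groups averaged were set against TD. In that comparison 12.4% of all genes were called higher and 12.1% lower. Of the granule list it called 3 higher and 7 lower, and 4 to 11 in all with 1 library left out. Tpsg1, Ctsg, Gata1 and Il13 were called in neither patch group alone. Tpsg1, a tryptase anchored in the membrane, fell by 1.03 on the log2 scale (edgeR adjusted p = 0.0445) from 0.820 CPM in TD. Ctsg, cathepsin G, which neutrophil precursors also make, fell by 0.59 (edgeR adjusted p = 0.0338), and the transcription factor Gata1 fell by 0.82 (edgeR adjusted p = 0.0359) from 0.636 CPM. Il13, a type 2 cytokine of the growth list, fell by 1.28 (edgeR adjusted p = 0.0348) from 0.420 CPM, and its TD and strain libraries overlapped. Counts per library were low, at 4 to 25 for Tpsg1, 5 to 21 for Gata1 and 1 to 13 for Il13. Il1rl1, the receptor for IL-33, rose by 1.00 (edgeR adjusted p = 0.0261), from a mean of 40.2 CPM in TD to 91.7 in strain and 70.7 in no strain. The level of its ligand Il33 had a log2 fold change of -0.33 in the same comparison (edgeR adjusted p = 0.192). Mitf, a transcription factor of mast cells and melanocytes, had means of 40.7, 41.4 and 37.8 CPM in TD, strain and no strain.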
